A study of Mus musculus with 32 samples.

Results

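Tumours of DDR1 wild-type E0771 cells were compared between 2 host settings, and 9 of the 32 libraries of the series belong to this comparison. E0771 is a mouse mammary tumour cell line, and DDR1 is a receptor tyrosine kinase that binds collagen. The members were the 5 libraries of E0771 DDR1 WT tumours in Rag1-/- hosts and the 4 libraries of E0771 DDR1 WT tumours in C57BL/6 hosts, which carry the name day 4; they were chosen by these labels and by no measured value. Per the series' design text, the tumours in C57BL/6 hosts had been moved there from Rag1-/- hosts. No treatment is given for either group, and the sources used here name no age, sex, site of growth or day of collection in Rag1-/- hosts. The labels do not say whether each library came from a separate animal, so a p-value here covers the spread among libraries, which may be technical. The groups differ in host, in transplant history, in the deposited table that holds them, and in the molecule label, which is total RNA for the Rag1-/- libraries and polyA RNA for the day 4 libraries. These factors cannot be told apart.

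Rag1 encodes a subunit of the recombinase that assembles antigen receptor genes, and Rag1-/- mice have no mature T or B cells but keep natural killer cells, neutrophils and macrophages. Interferons bind receptors on most cells and switch on a shared set of antiviral genes. Neutrophils are drawn into damaged tissue by chemokines of the CXC family, and fibroblasts lay down collagen that lysyl oxidases then cross-link. Low oxygen stabilises HIF1A, which switches on genes of glucose uptake and glycolysis.

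Levels are reads of a gene in every 1000000 reads over the 20109 gene symbols found in both tables (RPM), and a difference is the day 4 mean minus the Rag1-/- mean of log2(RPM + 0.5), so that a positive value is higher at day 4 and low genes show less than their full change. The 5 Rag1-/- libraries held 17708408 to 23835879 reads in these symbols and the 4 day 4 libraries 18790555 to 22247974, which was 92.8% to 93.6% of each library's reads. Of the 11932 genes with a mean of at least 0.5 RPM, 479 (4.01%) were called higher at day 4 and 129 (1.08%) lower. These shares are the base for the list counts below. A call needed a limma adjusted p under 0.05, a difference of at least 4-fold, and no overlap between the 4 and the 5 libraries. By the adjusted p alone, 3223 genes (27.0%) were higher and 5055 (42.4%) lower; with upper-quartile scaling these were 4225 and 3784, and the median over all genes was -0.15 as scaled here and 0.04 with upper-quartile scaling, so the direction of small differences depends on the scaling. Ddr1 was at 199.9, 203, 187, 192 and 186 RPM in the Rag1-/- libraries and at 142, 188, 170.3 and 144 RPM in the day 4 libraries, with overlapping groups and a difference of -0.28 (SE 0.09, limma adjusted p = 0.0167). The DDR1 KO tumours of the same tables averaged 39.4 RPM in Rag1-/- hosts and 36.7 RPM at day 4, so all 9 libraries had the Ddr1 level their labels give. Krt8, a keratin of simple epithelia, averaged 283 ± 49.4 RPM (SD, n = 5) in Rag1-/- hosts and 581 ± 63.3 RPM (SD, n = 4) at day 4; the difference is under 4-fold, and 29.7% of its transcript windows are shared with another gene.

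The 2 tables did not count all genes alike. Eno1, an enzyme of glycolysis, was at 0, 0.042, 0.0565, 0 and 0.0526 RPM in the Rag1-/- libraries and at 1158, 1100.5, 1216 and 1128 RPM at day 4, the largest difference of all called genes with a mean of 10 RPM or more, and it averaged 0.0192 RPM in cultured wild-type cells, whose table is of the same kind as the Rag1-/- table. Akap2, an anchor of protein kinase A, went the other way, with 224, 197, 230.5, 249 and 218 RPM in Rag1-/- hosts and 0 in all 4 day 4 and all 4 day 6 libraries. Rps29, a ribosomal protein gene, averaged 1.2 and 922 RPM and Adnp, a chromatin factor, 181 and 0.414 RPM in Rag1-/- hosts and at day 4. Of the 12 largest differences in each direction, 10 of the higher and 11 of the lower genes share over 5% of their 50-base transcript windows with another gene (GENCODE annotation) or were near 0 in every library of one kind of table only. Genes without either property that also have a GENCODE transcript are called countable below, a class set after these values were seen. Among the 8798 countable genes, 314 (3.57%) were called higher and 60 (0.682%) lower at day 4. Of those, 84 higher and 20 lower genes also separated all 15 libraries of the older kind of table (culture and Rag1-/-) from all 17 of the newer kind (day 4 and day 6).

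**Figure D1:**
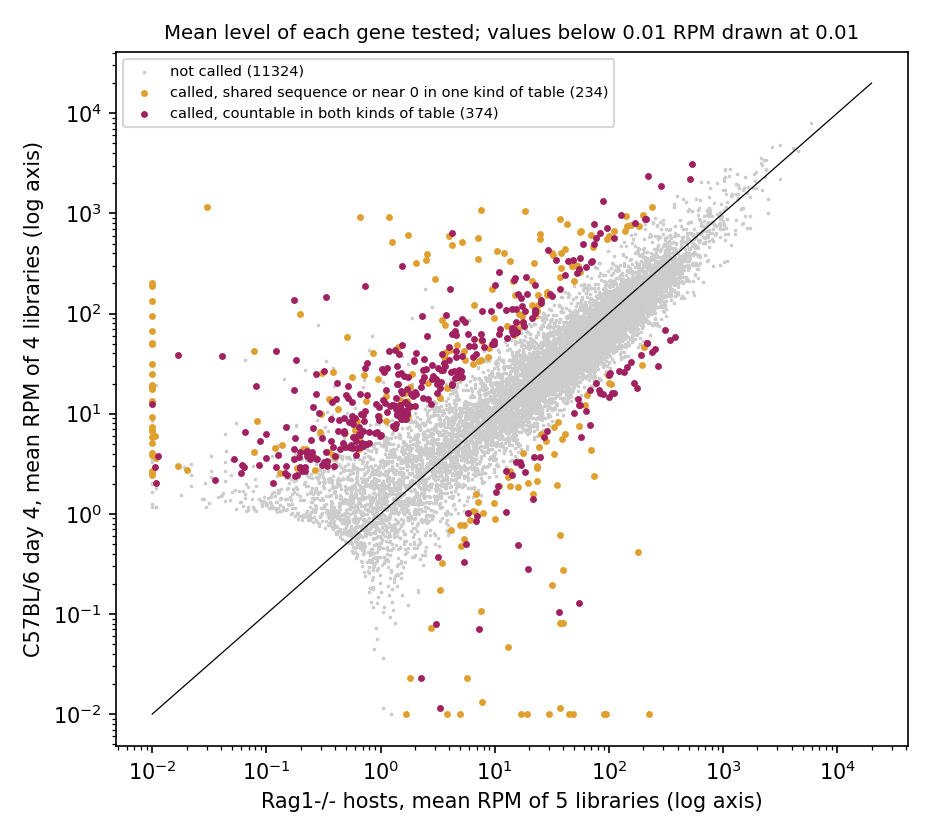
Mean RPM of each of the 11932 genes tested in 5 Rag1-/- libraries (x, log axis) and 4 day 4 libraries (y, log axis), with a line of equal level. Called genes are coloured by whether they are countable (374) or not (234); many of the farthest points, along the left and bottom edges, are not countable.

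Among countable genes the day 4 tumours had more RNA of neutrophil genes, of Arg1 and Nos2, of genes induced by low oxygen and of some matrix genes, and less of interferon-induced and cholesterol synthesis genes. The day 6 tumours of the series, also from C57BL/6 hosts and from the newer kind of table, are given beside these values; they were treated with control IgG, carry no DDR1 genotype label, and had Ddr1 at 17.1 to 23.7 RPM. Their mean lay nearer to the Rag1-/- mean than to the day 4 mean for 165 of the 314 countable higher genes and for 36 of the 60 countable lower genes. In the DDR1 KO tumours of the same hosts and tables, 229 of the 314 (72.9%) and 28 of the 60 (46.7%) were called too, where 5.69% and 0.85% of 12346 genes were called higher and lower; those tumours share the confounding of host and table. In cultured wild-type cells, 189 of the 314 higher genes and 8 of the 60 lower genes averaged under 1 RPM. The culture and day 6 counts were not made over all countable genes, so they have no base. A gene called higher can pass the filter on low values through its day 4 level alone, and a gene called lower through its Rag1-/- level alone. Its direction is then fixed by the filter, as for Ghrh, Thbs4, Setdb2 and Aldoart2 below.

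**Figure D2:**
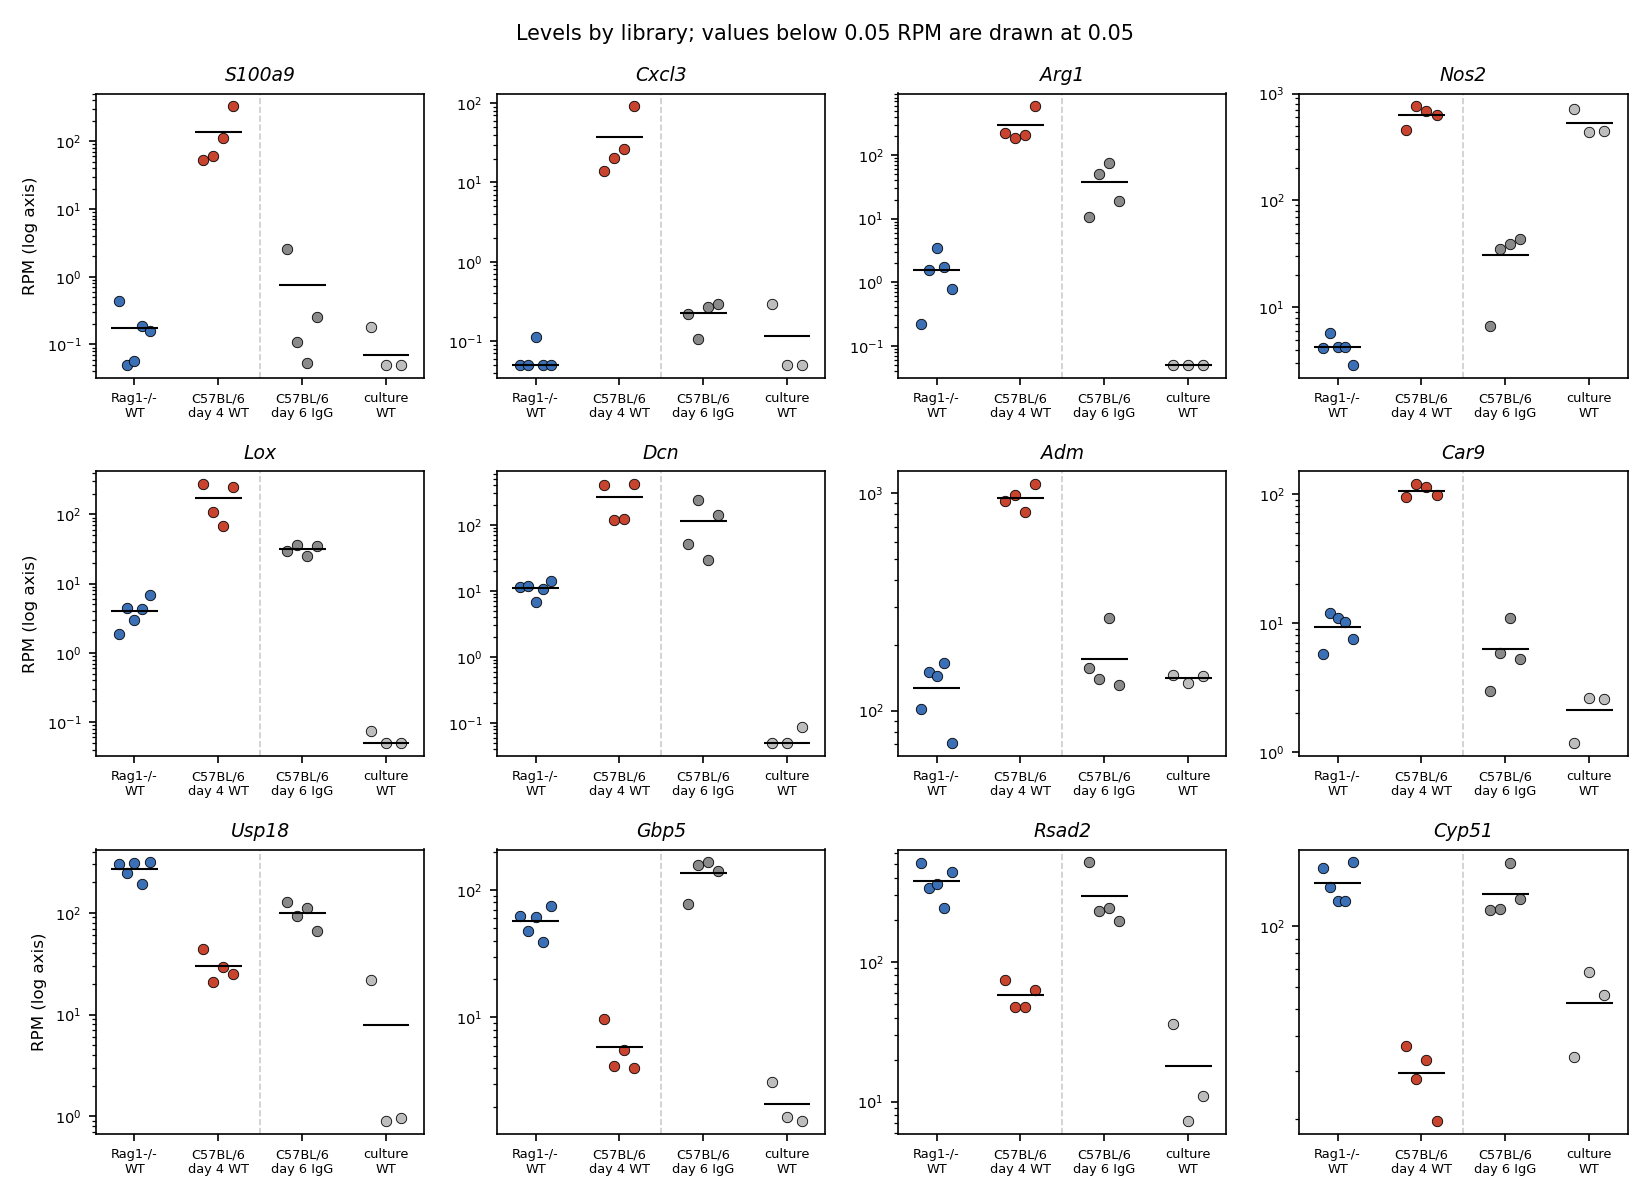
RPM (log axis) of 12 genes in each library, with the group mean as a bar; groups right of the dashed line are shown for comparison only. S100a9, Cxcl3, Arg1, Nos2, Lox, Dcn, Adm and Car9 are higher, and Usp18, Gbp5, Rsad2 and Cyp51 lower, in the 4 day 4 libraries than in the 5 Rag1-/- libraries without overlap.

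Neutrophil genes and the chemokines that attract neutrophils were higher at day 4 in 14 of 14 members tested, 11 of them called and 0 lower, with a median difference of 3.24. Over all genes tested, 4.01% were called higher. S100a9, Cxcl3, Cxcl5, Cxcr2, Retnlg and Trem1 passed the filter on low values only through their day 4 levels, so their direction was fixed by it. Of 19 members in both tables, Mpo, Elane, Camp and Ltf were among those too low to test. Pooled, Ltf had 0.44 RPM in Rag1-/- hosts and 0.213 RPM at day 4. S100a9, a calcium-binding protein abundant in neutrophils (chr3:90692630-90695721 in GRCm38), was at 0.436, 0.042, 0.0565, 0.19 and 0.158 RPM in Rag1-/- hosts and at 52.9, 59.5, 112 and 325 RPM at day 4. All 4 day 4 libraries lay far above all 5 others, and the difference was 7.29 (SE 0.46, limma adjusted p = 3.54e-07). Its partner S100a8 was at 2.07, 1.68, 3.56, 2.57 and 1.68 RPM and at 39.1, 34.2, 72 and 228 RPM, a difference of 4.66 (SE 0.47, limma adjusted p = 1.03e-05). The chemokine gene Cxcl3 was at 0, 0.042, 0.113, 0.0475 and 0 RPM in Rag1-/- hosts, and at 13.9, 20.5, 26.1 and 90.9 RPM at day 4. Ppbp, another ligand of the receptor CXCR2, was at 0.0545, 0.21, 0.0565, 0.38 and 0.211 RPM and then at 25.4, 41.4, 41 and 31 RPM, a difference of 5.68 (SE 0.20, limma adjusted p = 3.32e-09). Ppbp is not on the list, and its direction too was fixed by the filter, which it passed only through its day 4 level. Cxcl2 differed by 5.46, but 5.84% of its windows are shared with another gene and it is not countable. Lcn2, which encodes an iron-withholding protein of neutrophil granules and of stressed epithelium, averaged 1.15 ± 0.436 RPM in Rag1-/- hosts (SD, n = 5) and 28.7 ± 18.5 RPM at day 4 (SD, n = 4), and it was at 177 RPM in cultured tumour cells. Summed, the countable members of the list had 18 to 33 RPM in Rag1-/- hosts, 201 to 966 RPM at day 4, 24 to 64.7 RPM at day 6 and 167 to 600.0 RPM in cultured tumour cells alone. Day 4 replicate 4 was the highest of its group for S100a8, S100a9, Cxcl3, Cxcl2 and Lcn2. The day 6 libraries had 0.053 to 2.59 RPM of S100a9 and 0.107 to 0.295 RPM of Cxcl3. In such bulk samples, more cells of a type and more RNA per cell cannot be told apart.

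Of 24 macrophage and monocyte genes, 5 were called higher and 0 lower, with a median of 0.94, beside 4.01% and 1.08% of all genes. At 2-fold without overlap, 11 members were higher and 2 lower. Those lower were Gpnmb, at 386 to 547 RPM in Rag1-/- hosts and 133 to 163 RPM at day 4, and Ly6c2. The monocyte gene Ly6c2 was at 22.6 to 32.6 RPM and 8.1 to 17.6 RPM. Arg1, the arginase of alternatively activated macrophages (chr10:24915207-24927470), was at 0.218, 1.55, 3.44, 1.71 and 0.79 RPM in Rag1-/- hosts and at 219, 188, 211 and 583 RPM at day 4, a difference of 7.25 (SE 0.47, limma adjusted p = 4.66e-07). Nos2, the inducible nitric oxide synthase (chr11:78920787-78960226), was at 4.19, 5.75, 4.24, 4.28 and 2.9 RPM and at 459, 758, 692 and 633 RPM, a difference of 7.06 (SE 0.18, limma adjusted p = 1.76e-10). Both enzymes consume arginine, and for both genes the lowest day 4 value lay far above the highest Rag1-/- value. Nos2 stood at 535 RPM in cultured wild-type cells, close to its day 4 level, whereas Arg1 had 0; at day 6 they ranged over 6.7 to 43.4 and 10.8 to 74.3 RPM. Cd14, a lipopolysaccharide co-receptor, averaged 7.71 RPM in Rag1-/- hosts and 54.6 RPM at day 4, a difference of 2.65 (SE 0.23, limma adjusted p = 3.32e-06). Spp1, osteopontin, averaged 72.2 and 459 RPM but is not countable. Cd163, a haemoglobin scavenger receptor, differed by 2.36; without day 4 replicate 1 it differed by 1.77 and was not called. Summed over the list, the Rag1-/- libraries had 1910 to 2330 RPM, the day 4 libraries 3920 to 6850 RPM and the day 6 libraries 4930 to 9890 RPM.

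Monocyte-attracting chemokines had 4 of 12 members called higher and 0 lower, beside 4.01% and 1.08% of all genes. Negative differences were found for 3 members. Csf1 was lower without overlap, at 280.7 to 355.3 RPM in Rag1-/- hosts and 170.2 to 217.4 RPM at day 4, under 4-fold. Ccl6 was at 45.8, 58.6, 50.9, 51.5 and 71.6 RPM in Rag1-/- hosts and at 679, 200, 213 and 329 RPM at day 4, a difference of 2.50 (SE 0.31, limma adjusted p = 4.04e-05), and Ccl3, Ccl9 and Ccl11, the last of which attracts eosinophils, differed by 2.53, 2.22 and 2.74. All 4 separated both kinds of table, and Ccl9 was not called without day 4 replicate 1 (1.97). Among 14 complement and acute phase genes, 4 were called higher and 0 lower. At 2-fold without overlap, 5 were higher and 1 lower. The lower one was the complement gene C2, at 97 to 126.5 RPM in Rag1-/- hosts and 38.2 to 50.8 RPM at day 4. Saa3, an acute phase protein of inflamed tissue, was at 4.85, 6.25, 7.06, 2.9 and 4.69 RPM and at 64.2, 66.5, 40.8 and 184 RPM, a difference of 3.80 (SE 0.38, limma adjusted p = 9.03e-06). Serping1, the inhibitor of complement C1, and C5ar1, the receptor for C5a on myeloid cells, differed by 2.78 and 2.16 and separate both kinds of table.

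Hypoxia and glycolysis genes, with a median of 1.72, had 7 of 18 members called higher and 0 lower, beside 4.01% and 1.08% of all genes. Of the 11 countable members 4 were called higher, beside 3.57% of all countable genes. The summed level of the 11 was 1600 to 2270 RPM in Rag1-/- hosts, 5880 to 7250 RPM at day 4, 1140 to 2070 RPM at day 6 and 2750 to 2840 RPM in culture. Adm, a vasodilating peptide, was at 101, 151, 144, 166 and 71.1 RPM in Rag1-/- hosts and at 922, 981, 824 and 1099.9 RPM at day 4, a difference of 2.97 (SE 0.22, limma adjusted p = 1.29e-06). Car9, a carbonic anhydrase at the cell surface and a classical target of HIF1A, was at 5.72, 11.9, 10.8, 10.2 and 7.48 RPM and at 94.7, 118, 113 and 97.6 RPM, a difference of 3.49 (SE 0.19, limma adjusted p = 1.33e-07). The day 4 values of both genes lay close together and above every Rag1-/- value. The day 6 libraries had 131 to 266 RPM of Adm and 2.96 to 10.9 RPM of Car9. Pgk1, which makes ATP in glycolysis, and Bnip3, a mitophagy receptor, differed by 3.53 and 2.65, but 53.9% and 47.2% of their windows are shared with other genes.

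The genes of the extracellular matrix were higher at day 4 in part, and some abundant ones had lower values. Among 20 fibroblast genes 7 were called higher, among 22 collagens 7, among 16 genes of collagen cross-linking and processing 5, among 23 matrix glycoproteins and proteoglycans 7, and among 21 matrix proteases and inhibitors 6. No member was called lower, and the list medians were 1.30, 0.56, 0.78, 1.56 and 1.19. Over all genes tested, 4.01% were called higher and 1.08% lower. Summed, countable collagens had 13100 to 15400 RPM in Rag1-/- hosts and 15400 to 25900 RPM at day 4. Countable glycoproteins and proteoglycans had 5130 to 6230 and 5680 to 9670 RPM, with overlap. Among members with lower values at day 4, Lama5, a laminin chain of basement membranes, averaged 816 and 299 RPM, a difference of -1.48. Col6a3, a chain of type VI collagen, averaged 2481 and 1400.1 RPM (-0.86), and the PDGF receptor gene Pdgfrb 192 and 92.4 RPM (-1.06). These 3 differences are under 4-fold, but all day 4 values lay below all Rag1-/- values; Lama5 separates both kinds of table. Lox, the lysyl oxidase that cross-links collagen and elastin (chr18:52516060-52529867), was at 1.85, 4.41, 2.99, 4.23 and 6.74 RPM in Rag1-/- hosts and at 271, 109, 67.6 and 249 RPM at day 4, a difference of 5.14 (SE 0.43, limma adjusted p = 2.74e-06). It averaged 0.0244 RPM in cultured tumour cells, and 25.4 to 35.9 RPM were found at day 6. Loxl1, a second lysyl oxidase, differed by 3.91 (SE 0.31, limma adjusted p = 2.03e-06). Of the prolyl hydroxylase subunits, P4ha3 differed by 2.99 and P4ha2 by 2.36, and Adamts2, which trims procollagen, by 2.93.

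Col1a2, a chain of type I collagen, was at 94.2, 155, 38.6, 49.9 and 109 RPM in Rag1-/- hosts and at 2917, 919.7, 649 and 794 RPM at day 4. The groups did not overlap, and day 4 replicate 1 lay far above the other 3; the difference was 3.77 (SE 0.48, limma adjusted p = 5.17e-05). The other type I chain, Col1a1, averaged 289 ± 187 RPM (SD, n = 5) and 1888 ± 1215 RPM (SD, n = 4), a difference of 2.79. Col5a2 and Col8a1 differed by 3.22 and 2.85. Col14a1, which sits on collagen fibrils, was at 133, 7.6, 7.45 and 9.43 RPM in the 4 day 4 libraries, and its difference of 3.32 became 2.33 without replicate 1. Dcn, the fibril-binding proteoglycan decorin (chr10:97479500-97518163), was at 11.5, 12, 6.89, 10.5 and 14 RPM and at 398, 119, 123 and 410.3 RPM, a difference of 4.30 (SE 0.39, limma adjusted p = 4.81e-06), and it averaged 0.0505 RPM in cultured cells. Mfap5, Fbln1 and Pdpn, 3 other fibroblast genes, differed by 4.26, 3.06 and 2.98. Dcn, Col14a1, Col1a1, Loxl1, Fbln1, P4ha3, Adamts2 and Bgn separated both kinds of table, which Lox and Col1a2 did not.

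Bgn, the proteoglycan biglycan, differed by 3.06 (SE 0.23, limma adjusted p = 1.28e-06) and Has2, a hyaluronan synthase, by 2.98 (SE 0.20, limma adjusted p = 6.88e-07). Fn1, fibronectin, was at 61, 91.4, 51.5, 76.8 and 102 RPM in Rag1-/- hosts and at 924, 415, 230.3 and 702 RPM at day 4, and Thbs1, a matricellular protein that activates TGF-beta, at 40.1, 41.8, 46.3, 46.5 and 44.4 RPM and 218, 287, 158 and 670 RPM. Neither gene overlapped between the groups, and their differences were 2.74 and 2.69. Aspn, asporin, differed by 2.80, and by 2.15 without day 4 replicate 1. Of the proteases and inhibitors, Plat, the tissue plasminogen activator, averaged 48.1 and 342 RPM, a difference of 2.83 (SE 0.17, limma adjusted p = 3.27e-07), and the macrophage elastase Mmp12 69.3 and 327 RPM, a difference of 2.19. Adamts5, an aggrecanase, differed by 2.25 and was not called without day 4 replicate 1 (1.72). The inhibitor Serpinb2 and the protease Mmp3 differed by 4.80 and 2.45 but are not countable, and Mmp3 was not called without day 4 replicate 4 (1.90).

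Over all genes tested, 4.01% were called higher and 1.08% lower. Of 9 collagen receptors, 2 were called higher and 0 lower. These were Mrc2, which takes up collagen for degradation, with 5.45, 5.83, 2.2, 3.85 and 5.47 RPM in Rag1-/- hosts and 46.9, 28.2, 30.4 and 41.6 RPM at day 4, and Itga11, an integrin chain that binds fibrillar collagen, at 0.225 and 4.21 RPM on average. Ddr2, the paralogue of Ddr1, was at 459, 477, 473, 454 and 527 RPM and at 235, 276, 174 and 246 RPM. The day 4 values were all lower, but the difference of -1.05 (SE 0.12, limma adjusted p = 1.91e-05) is under 4-fold. Itga10, another integrin chain, was at 9.84 to 13.1 RPM in Rag1-/- hosts and 2.48 to 4.10 RPM at day 4. At 2-fold without overlap, 3 receptors were higher and 2 lower. Among 17 TGF-beta genes and targets, 2 were called higher and 0 lower, both of the activin system: Inhba, a chain of activin, was at 0.272, 0.545, 0.226, 0.19 and 0.369 RPM and at 11.6, 32.5, 6.65 and 55.8 RPM, a difference of 4.62 (SE 0.51, limma adjusted p = 1.65e-05), and Fst, which binds activin, differed by 2.31. Inhba separates both kinds of table. Both Inhba and Itga11 passed the filter on low values only through their day 4 levels, so their direction was fixed by it. Fst was not called without day 4 replicate 1 (1.87).

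Skeletal muscle genes had positive differences in 22 of 22 members, with a median of 2.52, but only Myod1 was called. Members near 0 in Rag1-/- hosts, Myod1 among them, passed the filter on low values only through their day 4 levels. The direction of those members was fixed by the filter. Myod1, the regulator of myoblast fate, had no read in any Rag1-/- library and stood at 0.405, 0.138, 37.8 and 11.5 RPM at day 4, so that replicates 3 and 4 held nearly all of it, and it was not called without replicate 3 (1.93) or replicate 4 (2.49). Acta1, the actin of skeletal muscle fibres, was at 11.5, 0.294, 0.226, 0.143 and 0.158 RPM and at 5.17, 4.38, 579.7 and 119 RPM, with overlapping groups. Summed, the list had 194 to 253 RPM in Rag1-/- hosts, 433 to 2960 RPM at day 4 and 540 to 11700 RPM at day 6. Wide day 4 values were also found for H19, an imprinted RNA of embryonic tissue and regenerating muscle, at 67.3, 5.71, 580.3 and 107 RPM, and for Thbs4, a matrix protein of muscle and tendon, at 17, 15.6, 106 and 444 RPM; their Rag1-/- values were 2.61, 0.252, 0.0565, 0.19 and 0.579 and 0.981, 0.21, 0.226, 0.19 and 0.0526 RPM. They differed by 6.17 and 6.27, and by 5.16 and 5.32 without replicate 3 and replicate 4. How far muscle RNA takes part in the differences of other genes was not tested.

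**Figure D3:**
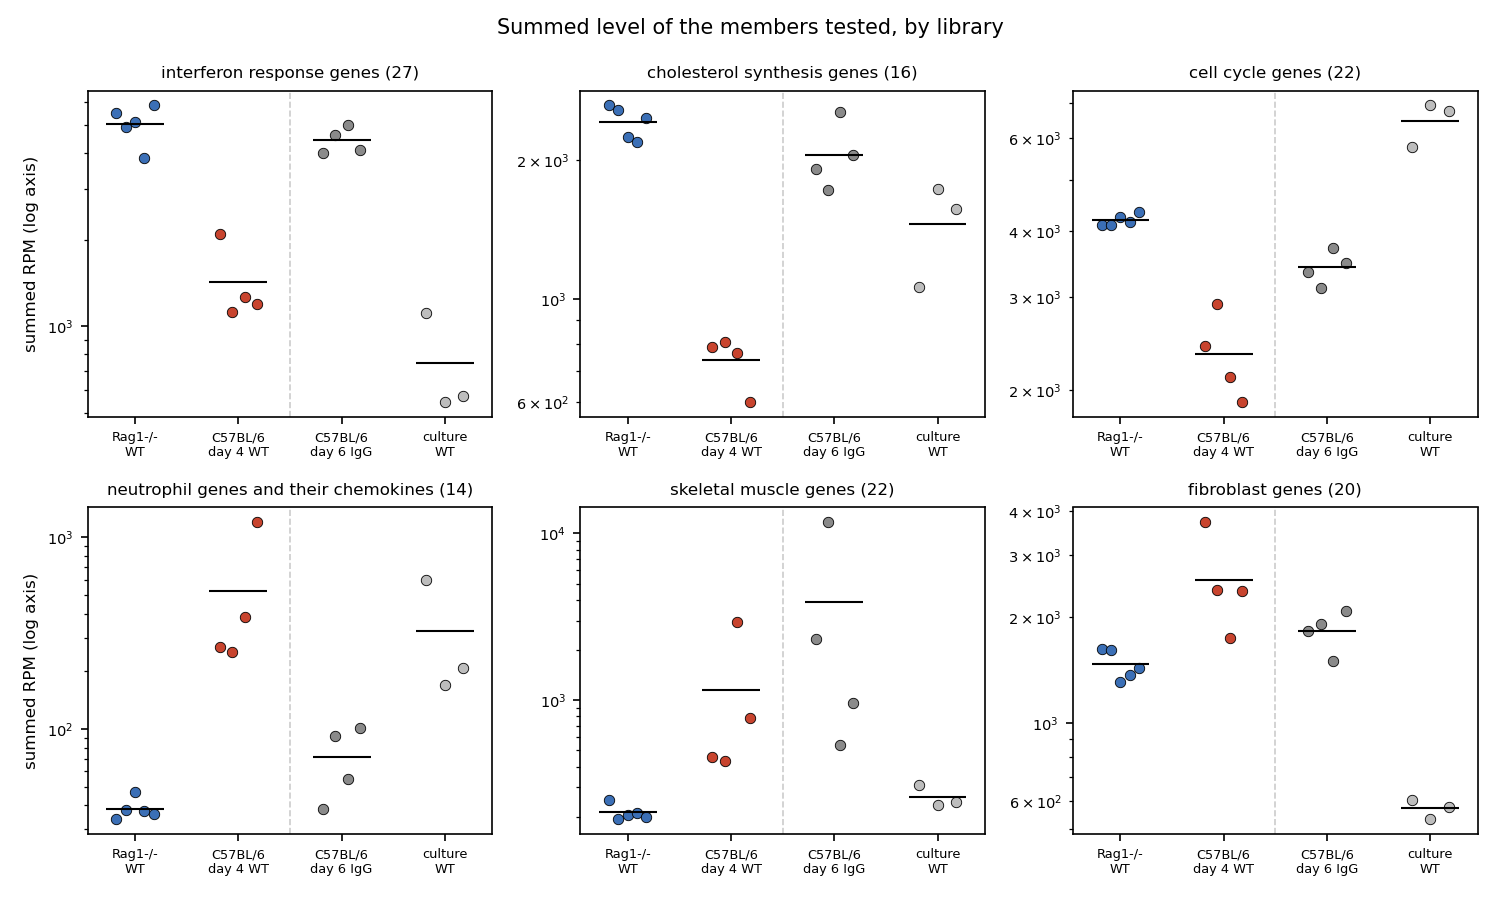
Summed RPM (log axis) of the tested members of 6 lists in each library, with the group mean as a bar; groups right of the dashed line are for comparison. Interferon, cholesterol and cell cycle genes are lower and neutrophil, muscle and fibroblast genes higher in all 4 day 4 libraries than in the 5 Rag1-/- libraries, and the muscle sum reaches 2960 RPM in day 4 replicate 3.

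Some of the countable genes called higher belong to no stromal or myeloid list. Ghrh, the growth hormone-releasing hormone gene, had reads in 1 of the 5 Rag1-/- libraries and was at 38.8, 20.5, 60 and 35.7 RPM at day 4, 0.643 RPM in culture and 0.037 to 0.107 RPM at day 6. Il24, a cytokine of the interleukin 10 family, was at 0.327, 0.461, 0.791, 0.998 and 1.11 RPM and at 17.2, 21.9, 43 and 31.1 RPM, a difference of 4.50 (SE 0.28, limma adjusted p = 3.99e-07). Tnfrsf9, the costimulatory receptor 4-1BB, was at 25.8, 24.9, 32.4, 37.3 and 25 RPM and at 347, 410.4, 539 and 433 RPM, a difference of 3.87 (SE 0.15, limma adjusted p = 7.19e-09). It is on the list of checkpoint and regulatory T cell genes, of which 1 of 11 was called higher, and cultures of the tumour cells alone had 141 RPM of it. Egr3, an immediate early transcription factor, averaged 0.523 and 14.4 RPM and was the only 1 of 14 immediate early genes called; it separates both kinds of table. All 14 had positive differences, with a median of 0.91, and 8 were higher without overlap, where 22.6% of all genes tested were. Their sum was 1040 to 1490 RPM in Rag1-/- hosts and 2270 to 2790 RPM at day 4.

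The T cell genes Cd3e, Cd3d and Cd8a were under 1 RPM in all 9 libraries, and some other lymphocyte genes were well above that. Cd3e, a chain of the T cell receptor complex, had no read in the 5 Rag1-/- libraries together, which hold 0 of 99939543 reads and so allow up to 0.03 RPM, and it was at 0.674, 0.184, 0.0532 and 0.046 RPM at day 4. Cd3d was at 0.0545, 0.0839, 0, 0.0475 and 0 RPM and at 0.629, 0.184, 0.372 and 0.138 RPM, and Cd8a at 0.0545, 0.378, 0.0565, 0.095 and 0.105 RPM and at 0.27, 0.184, 0.0532 and 0.046 RPM. Day 4 replicate 1 was the highest day 4 library for all 3, at under 1 RPM, and the groups overlapped for Cd8a. Over all genes tested, 4.01% were called higher and 1.08% lower. Of 24 T cell genes 12 passed the filter on low values, and 0 were called higher and 2 lower. These were Cd4, the coreceptor of helper T cells, also found on some dendritic cells, at 7.68, 8.43, 7.45, 5.08 and 5.37 RPM in Rag1-/- hosts and 1.44, 0.461, 0.692 and 0.782 RPM at day 4, and the transcription factor Bcl11b at 5.5, 7.05, 7.91, 7.13 and 7.58 RPM and 0.674, 1.57, 0.745 and 0.782 RPM. Their differences were -2.47 (SE 0.23, limma adjusted p = 5.53e-06) and -2.42 (SE 0.19, limma adjusted p = 2.15e-06); with a pseudocount of 2 RPM they were -1.62 (for both) and were not called. In the day 6 libraries Cd4 was at 3.89 to 15.2 RPM. Thy1, a surface protein of T cells and also of fibroblasts, differed by 1.32, the interleukin 7 receptor gene Il7r by 1.12 and Tcf7 by -0.99, all under 4-fold. At 2-fold without overlap, 2 of the 12 genes were higher and 2 lower, and the median was 0.21. Cd247, a chain of the T cell receptor complex, was at 0.169 to 0.671 RPM in Rag1-/- hosts and 0.874 to 1.57 RPM at day 4. Cd3g, too low to test, was at 0 to 0.163 RPM and 0.213 to 0.539 RPM. The T cell kinase gene Lck averaged 3.5 and 3.14 RPM, with overlap, beside 2.44 RPM in culture. Of 18 B cell genes 5 passed the filter and 0 were called; the antigen receptor subunit Cd79a averaged 0.632 and 0.575 RPM, and Cd22 8.99 and 3.5 RPM, and neither is countable. Pax5, the B cell identity factor, averaged 0.154 and 2.29 RPM, a difference just under 4-fold on the log2(RPM + 0.5) scale, without overlap. It was called with TMM, median-of-ratios and upper-quartile scaling (2.07, 2.08 and 2.10), but it is not countable either. Pax5 passed the filter on low values only through its day 4 level, which fixed its direction. Cd79b, the partner of Cd79a, differed by 0.56, with overlapping groups. None of 11 natural killer cell genes and none of 13 cytotoxic effector genes was called in either direction, with medians of -0.05 and -0.45, and none of 18 endothelial genes, with a median of 0.08.

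Interferon response genes were lower at day 4: all 27 members had negative differences, 14 were called lower and 0 higher, and the median was -2.0. Of all genes tested, 1.08% were called lower and 4.01% higher, and their median was -0.15. Usp18, which removes ISG15 and restrains the interferon receptor, was at 302, 246, 309, 192 and 313 RPM in Rag1-/- hosts and at 44.2, 21, 29.3 and 25 RPM at day 4, a difference of -3.20 (SE 0.21, limma adjusted p = 5.1e-07). Rsad2, the antiviral enzyme viperin, was at 511, 339, 364, 243 and 438 RPM and at 74.6, 47.5, 47.4 and 63.1 RPM, a difference of -2.68 (SE 0.21, limma adjusted p = 1.68e-06). Oas3, a sensor of double-stranded RNA, was at 174, 169, 170.3, 118 and 202 RPM and at 29.9, 19.8, 9.69 and 21.2 RPM, a difference of -3.10 (SE 0.27, limma adjusted p = 3.56e-06). Ddx60, a helicase of antiviral sensing that is not on the list, was at 75.5, 61.2, 70.2, 46.6 and 89.5 RPM and at 14.2, 5.71, 4.04 and 6.81 RPM, a difference of -3.19 (SE 0.30, limma adjusted p = 6.17e-06). In each of these 4 genes the highest day 4 value stayed well below the lowest Rag1-/- value. Ifi44, Cmpk2 and Mx1 differed by -3.30, -2.74 and -2.72. Cultured cells had little of these RNAs, with 7.98 RPM of Usp18 and 18 RPM of Rsad2. Summed over the list, Rag1-/- libraries had 3850 to 5860 RPM, day 4 libraries 1120 to 2100 RPM, day 6 libraries 4000 to 4990 RPM and culture 546 to 1120 RPM. The day 6 sums lay in the Rag1-/- range, but those tumours also differ from day 4 in treatment and in Ddr1 level. The cause of these differences was not tested.

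The promoters of 4 interferon-induced genes are shown because transcription factors activated by interferon bind a short motif, the interferon-stimulated response element, searched here on both strands as GAAA, any 2 bases and GAAA (in reverse TTTC, any 2 bases and TTTC). The stretches are RefSeq promoters on GRCm38.p6, from 250 bases before to 50 bases after the start of the gene, printed in the direction of the gene; capitals mark the motif. They are chr3:142496684-142496983 (plus strand), chr8:61927837-61928136 (plus), chr5:120777610-120777909 (minus) and chr12:26456403-26456702 (minus).
Gbp5: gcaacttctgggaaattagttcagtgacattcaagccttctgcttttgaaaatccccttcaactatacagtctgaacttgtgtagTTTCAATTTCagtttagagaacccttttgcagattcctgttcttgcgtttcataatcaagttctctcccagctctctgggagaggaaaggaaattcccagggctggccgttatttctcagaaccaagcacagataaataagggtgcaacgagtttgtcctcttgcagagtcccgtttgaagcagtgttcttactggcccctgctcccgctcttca
Ddx60: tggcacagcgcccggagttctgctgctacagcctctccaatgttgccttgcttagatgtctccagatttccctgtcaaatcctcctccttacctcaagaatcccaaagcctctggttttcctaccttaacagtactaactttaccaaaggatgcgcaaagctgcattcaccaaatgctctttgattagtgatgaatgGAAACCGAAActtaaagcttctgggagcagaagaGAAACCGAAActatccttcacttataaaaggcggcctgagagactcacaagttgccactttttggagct
Oas3: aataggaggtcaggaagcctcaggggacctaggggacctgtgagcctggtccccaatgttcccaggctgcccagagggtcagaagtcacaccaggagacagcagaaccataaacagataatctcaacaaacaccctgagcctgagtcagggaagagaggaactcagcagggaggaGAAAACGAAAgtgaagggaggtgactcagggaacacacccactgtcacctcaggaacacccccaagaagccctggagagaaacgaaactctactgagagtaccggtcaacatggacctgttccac
Rsad2: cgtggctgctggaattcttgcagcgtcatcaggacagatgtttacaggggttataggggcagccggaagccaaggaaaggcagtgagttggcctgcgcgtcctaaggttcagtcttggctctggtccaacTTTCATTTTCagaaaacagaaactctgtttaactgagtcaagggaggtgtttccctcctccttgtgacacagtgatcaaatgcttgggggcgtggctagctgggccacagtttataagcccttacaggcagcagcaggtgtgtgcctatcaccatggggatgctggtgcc
Ddx60, which is on neither of the lists counted next, held 2 matches and the others 1 each. Of the 14 members of the interferon list and of the GTPase list described next that were called lower and have a promoter in that table, 9 (64.3%) held a match; of all 27 members tested with a promoter it was 18 (66.7%), called or not. Among all 9383 tested genes with a promoter, 360 (3.84%) held one, among 34 countable genes called lower 9 (26.5%) and among 215 countable genes called higher 14 (6.51%). A match describes the letters and not binding, and these lists are made of genes known for their response to interferon. All promoters printed above are ones that held a match. The promoters of Ifi44, Cmpk2, Oasl1, Oasl2 and Ifit2 in the table held no match.

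Guanylate-binding proteins and interferon-inducible GTPases, which attack membranes of intracellular pathogens and respond above all to interferon gamma, had negative differences in 13 of 13 members, 7 called lower and 0 higher, and a median of -2.01. Of all genes tested, 1.08% were called lower and 4.01% higher. Only 5 members are countable, since many are near copies of each other. Of those, 2 were called lower, beside 0.682% of all countable genes. Gbp5 was at 62.5, 47.4, 61.6, 39.3 and 75.5 RPM in Rag1-/- hosts and at 9.8, 4.19, 5.59 and 4.00 RPM at day 4, a difference of -3.22 (SE 0.26, limma adjusted p = 2.04e-06), and Gbp3 was at 117, 95.9, 109, 77 and 138 RPM and 31.1, 9.82, 13.3 and 9.89 RPM, a difference of -2.85 (SE 0.31, limma adjusted p = 1.47e-05). Day 4 replicate 1 was the highest of its group for both. At day 6 Gbp5 ranged over 78 to 164 RPM, above the Rag1-/- range. Gbp6, Gbp7 and Gbp8, not countable, differed by -3.29, -2.41 and -2.30.

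Chemokines that attract lymphocytes and genes of antigen presentation, many of which respond to interferon, held few calls. Of 13 lymphocyte-attracting chemokines and receptors, 2 were called lower and 1 higher. Cxcl10, which draws activated T and natural killer cells, was at 111, 73.2, 90.6, 57 and 112 RPM and at 17.4, 13, 24.7 and 8.37 RPM, a difference of -2.50 (SE 0.29, limma adjusted p = 2.47e-05). Ccl5 differed by -2.08, and it was not called with TMM, median-of-ratios or upper-quartile scaling (-1.94, -1.91 and -1.88) or without day 4 replicate 2 (-1.70). Cxcl9 and Cxcl11, which bind the same receptor as Cxcl10, differed by -1.38, with overlapping groups, and by -1.99; Cxcl11 is not countable. Cxcl12, a chemokine of stromal cells, was higher, at 3.76, 4.66, 3.16, 4.99 and 6.58 RPM in Rag1-/- hosts and at 28.4, 51.3, 59.4 and 106 RPM at day 4, a difference of 3.47 (SE 0.32, limma adjusted p = 5.46e-06). Of 15 genes of MHC class I presentation 1 was called lower and 0 higher: Nlrc5, the transactivator of class I genes, was at 236, 244, 228, 201 and 284 RPM and at 42.5, 50.4, 30.6 and 40.8 RPM, a difference of -2.54 (SE 0.14, limma adjusted p = 1.33e-07). The class I light chain B2m differed by 0.54 and the heavy chain H2-K1 by -0.32, both under 4-fold and in opposite directions, and H2-K1 is not countable. Of the 15 genes 12 had negative differences, and 8 were lower without overlap, where 37.7% of all genes tested were. The median was -0.80, beside -0.15 over all genes tested. Tap1, which carries peptides to class I molecules, averaged 377 and 148 RPM, a difference of -1.35 (SE 0.09, limma adjusted p = 6.69e-07). None of 11 genes of MHC class II presentation was called; Cd74, the invariant chain, was at 281, 328, 165, 205 and 247 RPM and at 593, 116, 154 and 167 RPM, so that day 4 replicate 1 stood above all other 8 libraries.

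Cholesterol synthesis genes, which SREBP2 switches on when cells are short of sterol, were lower at day 4 in 15 of 16 members. Of these 7 were called, beside 1.08% of all genes called lower. Among the 11 countable members, with a median of -1.80, 5 were called lower and 0 higher, beside 0.682% and 3.57% of all countable genes. Cyp51, the lanosterol demethylase (chr5:4080674-4104697), was at 163, 139, 123, 123 and 170.2 RPM in Rag1-/- hosts and at 36.7, 27.9, 32.9 and 19.7 RPM at day 4, a difference of -2.30 (SE 0.17, limma adjusted p = 1.31e-06). Mvd, the mevalonate diphosphate decarboxylase, was at 104, 95.1, 57.2, 70.8 and 80 RPM and at 18.3, 13.5, 23.1 and 13.9 RPM, a difference of -2.21 (SE 0.20, limma adjusted p = 4.31e-06). The groups did not overlap in either gene. At day 6 Cyp51 ranged over 115 to 170 RPM, and in culture it averaged 52.7 RPM. The 1 member called higher was Hmgcs1, which had no read in any library of the older kind of table and is not countable.

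None of 22 cell cycle genes was called in either direction; 21 had negative differences, with a median of -0.76, and the groups did not overlap in 16 of those, where 37.7% of all genes tested were lower without overlap. Top2a, the topoisomerase of dividing cells, was at 706, 694, 762, 691 and 804 RPM in Rag1-/- hosts and at 339, 464, 254 and 280.2 RPM at day 4, a difference of -1.17 (SE 0.15, limma adjusted p = 5.28e-05). Ccna2, cyclin A2, and Mcm6, a subunit of the replicative helicase, differed by -1.28 and -1.16, and Ccna2 is not countable. All 3 separate both kinds of table: the day 6 libraries also lay below every Rag1-/- and culture library.

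Of the countable lower genes outside these lists, Setdb2, a histone methyltransferase, was at 17.1, 15.8, 15.8, 13.4 and 18.4 RPM in Rag1-/- hosts and at 0.539, 0.369, 0.532 and 0.506 RPM at day 4, and at 0.74 to 1.43 RPM at day 6; it separates both kinds of table. Aldoart2, an intronless aldolase copy, averaged 54.3 and 0.13 RPM and separates both kinds as well. Ky, a muscle Z-disc protein gene, was at 20.1, 27.9, 16.9, 15.3 and 27.4 RPM and at 1.39, 1.01, 2.13 and 1.15 RPM, a difference of -3.51 (SE 0.22, limma adjusted p = 4.08e-07), and at 2.44 to 12.5 RPM at day 6. Ribosomal protein genes had 10 of 26 members called higher, but only 4 members are countable and 0 of those were called.

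**Figure D4:**
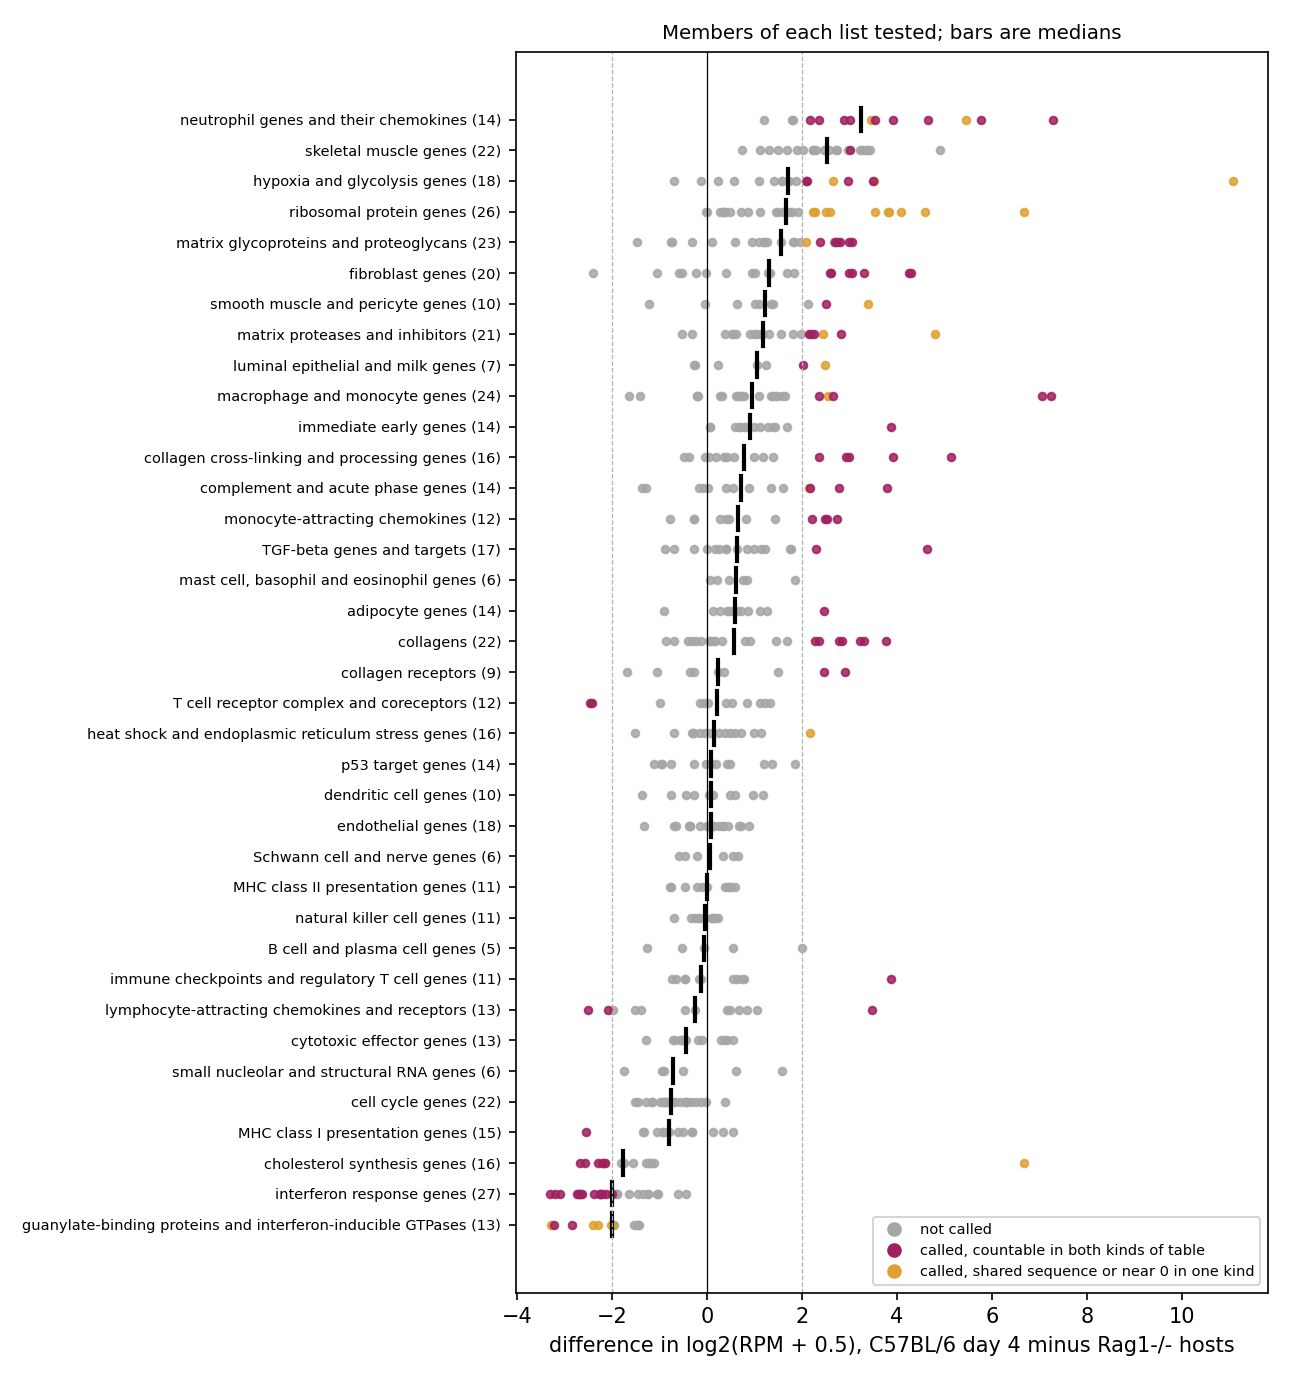
Difference in log2(RPM + 0.5), day 4 minus Rag1-/-, of each tested member of each list with at least 5 members tested (number in brackets), with the list median as a bar; dashed lines mark 4-fold. Neutrophil genes have the highest median (3.24) and interferon-inducible GTPases (-2.01) and interferon response genes (-2.0) the lowest, beside -0.15 over all genes tested.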

How the data were processed

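RNA was extracted with Trizol and libraries were made with the TruSeq stranded mRNA kit, per the labels' protocols; the submitters' processing notes name CASAVA, TopHat, DESeq2 and mm10, without versions. The authors deposited size-factor-normalised gene signal, not counts. In all 32 libraries 100% of values were whole multiples (within 0.01) of one step, so whole reads were recovered and scaled to 1000000 reads over 20109 shared symbols (RPM) (2500 and 5168 symbols of the Rag1-/- and day 4 tables were left out). No sample was dropped or imputed.

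The main test was limma 3.58.1 with a trend on log2(RPM + 0.5), with Benjamini-Hochberg adjustment over all 11932 genes. edgeR 4.0.16 and DESeq2 1.42.0 on the recovered reads, other scalings, pseudocounts, filters and leaving out each library were alternatives. On simulated data with known folds the call rule found 100% of 16-fold, 96% of 8-fold and 48% of exactly 4-fold genes among 11898 genes. Shared windows were counted in GENCODE M21 transcripts of GRCm38.

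Named genes are Ddr1, the 12 highest and 12 lowest called genes with at least 10 RPM in the higher group, and up to 5 members per list (called by size, then uncalled by level). T and B cell genes may all be named. Some genes that these rules name are not reported here. Lama5, Col6a3, Pdgfrb, Tap1, Cxcl9, Cxcl11, C2 and Trem1 were named after their values were seen. A repeat of the 12-gene rule among countable genes was added after their values were seen. The members and lists were chosen with earlier results of these data known. Of 42 lists, those not described in the results (histone and mitochondrial genes, with no symbol in both tables, among them) gave at most 2 calls in either direction.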

Additional observations from a re-analysis of the deposited data

Results flagged for a closer look

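Within a group of 4 or 5 libraries, a library was taken as standing apart where its gap to the nearest other library was over 0.829 (4) or 0.710 (5) of the range. This was asked of 300 groups of values and met 34 times; chance alone gives about 5% of groups, and genes of one list are not independent. Day 4 replicate 1 was the high one 14 times and day 4 replicate 4 was 9 times.

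Day 4 replicate 1 stood above the other 3 day 4 libraries for the matrix genes Col1a1 (3700 RPM, next 1450), Col1a2 (2920, next 920), Col14a1 (133, next 9.43) and Aspn (73, next 14.6). It did so for Ccl11 (36.2 RPM), the invariant chain gene Cd74 (593 RPM) and the oestrogen receptor gene Esr1 (8.99 RPM). It did so too for Gbp6 (3.96 RPM), Gbp3 (31.1 RPM) and Gbp8 (1.53 RPM), which are lower at day 4 than in Rag1-/- hosts. The summed levels of interferon response genes (2100 RPM), guanylate-binding proteins and interferon-inducible GTPases (305 RPM), MHC class II genes (2290 RPM) and adipocyte genes (1230 RPM) were highest in it as well.

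Day 4 replicate 4 stood above its group for the neutrophil chemokines Cxcl3 (90.9 RPM) and Cxcl2 (148 RPM), for the summed neutrophil genes (1200 RPM), and for Arg1 (583 RPM), Cd14 (93.8 RPM), Ccl3 (76.6 RPM), Plat (445 RPM), Mmp3 (131 RPM) and Itga11 (9.52 RPM). Day 4 replicate 3 did so for the summed skeletal muscle genes (2960 RPM, next 776), and day 4 replicate 2 for Bcl11b (1.57 RPM).

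Among the Rag1-/- libraries, replicate 1 was the highest for Fst (1.14 RPM), Thbs4 (0.981 RPM), H19 (2.61 RPM) and Acta1 (11.5 RPM) and the lowest for Lcn2 (0.381 RPM). Replicate 2 was the highest for Ghrh (0.0839 RPM, the others at 0), replicate 3 for the summed neutrophil genes (46.8 RPM), and replicate 5 for Aspn (4.32 RPM), and replicate 4 was the lowest for Ccl5 (59.4 RPM).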

How the results depend on the processing

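The counts depended on the fold and on the pseudocount. All and countable genes called higher were 1366 and 969 with a 2-fold limit, and 169 and 84 with an 8-fold limit; those called lower were 1198 and 838, and 39 and 12. A pseudocount of 2 RPM gave 279 and 161 higher and 77 and 38 lower genes. A pseudocount of 0.1 RPM gave 493 countable higher, 204 lower and 94 countable lower genes, and with no shared window allowed 22 countable genes were lower (a limit added after seeing the data). Leaving out each library in turn gave 455 to 566 higher and 125 to 151 lower genes, and 291 to 390 and 56 to 74 countable ones. TMM scaling gave 543 higher and 108 lower genes, upper-quartile scaling 583 and 104, and edgeR on recovered reads 480 and 129; DESeq2 gave 471 and 129, with no adjusted p for 8 called genes.

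Same-numbered libraries of both groups deviated with correlations of -0.168, -0.005, -0.026 and -0.015, so the numbers do not pair them. With the replicate block the counts were 479 higher and 125 lower. Of the named genes, 115 were followed through the alternatives. With the replicate block none of the 115 lost its call and Pax5 gained it, and no alternative run reversed the sign of a called one. With a pseudocount of 2 RPM, 14 of the 115 lost their call, among them Has2 (1.72), Itga11 (1.34) and Gbp8 (-1.5).

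Depth limits genes near 0: 3 reads over the 5 Rag1-/- libraries are 0.03 RPM.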

Other observations

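Lists that the results above do not describe held few calls. Of 10 smooth muscle and pericyte genes 2 were higher at day 4 and 0 lower. Actg2, the actin of visceral smooth muscle, was at 2.56, 2.69, 4.24, 2.66 and 3.42 RPM in Rag1-/- hosts and at 16.7, 19.7, 22.5 and 20.8 RPM at day 4, a difference of 2.51 (SE 0.16, limma adjusted p = 3.99e-07). It separates both kinds of table and ranged over 17.6 to 39 RPM at day 6. Tagln, transgelin, differed by 3.39 but is not countable. Of 7 luminal epithelial and milk genes 2 were higher and 0 lower. Elf3, an epithelial transcription factor, was at 0.817, 1.3, 1.58, 1.24 and 0.632 RPM and at 6.11, 9.63, 9.95 and 8.37 RPM, a difference of 2.50 (SE 0.22, limma adjusted p = 3.63e-06), and it averaged 31.5 RPM in cultured cells; 5.29% of its windows are shared with another gene. Esr1 differed by 2.03, and without day 4 replicate 1 (1.5) or Rag1-/- replicate 3 (1.92) it was not called. Of 14 adipocyte genes 1 was higher and 0 lower: Fabp4, a fatty acid carrier of adipocytes and macrophages, was at 5.56, 14.3, 14.5, 28.7 and 28.8 RPM and at 185, 34.6, 119 and 82.1 RPM, a difference of 2.46 (SE 0.53, limma adjusted p = 0.00178).

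None of 10 dendritic cell genes and none of 14 p53 target genes was called, with medians of 0.08 and 0.09. Of 16 heat shock and endoplasmic reticulum stress genes 1 was called higher, Hspb1, which differed by 2.18, is not countable, and was not called without day 4 replicate 3 (1.75). Of 4 keratinocyte genes tested 1 was called higher: Sprr1a, a precursor of the cornified envelope, which differed by 2.46 (SE 0.23, limma adjusted p = 5.84e-06).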
